A study of Mus musculus with 6 samples.

Results

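The miRNAs miR-192, miR-194 and miR-215 were examined in embryonic mouse cardiomyocytes (EMCMs). The members were chosen by name, as every row of the miRNA table that carries one of these names on any strand, in a family picked with the authors' comparison of the cultures and these levels already known. The rule found 7 rows of 689, which are miR-192, miR-194 and miR-215 and the opposite strands miR-192*, miR-215*, miR-194-1* and miR-194-2*. The asterisk marks the strand of a hairpin that the older nomenclature took to be the minor one.

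The labels describe wild type Swiss Webster cardiomyocytes of embryonic stage E16.5, whereas the methods name CD1 mice. All cells were grown on flexible plates coated with collagen I, and the 3 static cultures were left unstretched for 24 hours while the 3 stretched cultures were strained by 16% at 1 Hz for 24 hours. These are primary cultures from embryonic hearts and can hold cells other than cardiomyocytes. The table gave 1 abundance per miRNA, headed logConc and with no sample named. It is read here as the authors' mean over all cultures, as the log2 of the share of miRNA reads. This reading is an inference, as 2 to the power of the values summed to 0.995. Every level below is that value. The table carried no value of a single culture, so the depth is unknown, no level has an error or an n, and no difference below was tested. The table also carried the authors' own comparison of stretched with static cultures, which was not used, and the response of the family to stretch was not analysed here.

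miRNAs are cut from hairpins in longer transcripts, and usually 1 strand of the hairpin is loaded into Argonaute, where its seed, bases 2 to 8 from the 5′ end, pairs with target mRNAs. miR-192 and miR-215 have the same seed and so are treated as 1 family, while miR-194 has another seed and shares their transcripts. The 3 miRNAs are best known from intestine, liver and kidney, where they are abundant in epithelial cells and hepatocytes. They are also known as miRNAs that p53 induces, with arrest of the cell cycle among their reported effects.

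The seeds show how the family divides, and they stand in capitals in the mature sequences below, which are those of RefSeq for GRCm38.p6. All 7 rows were matched.
miR-192: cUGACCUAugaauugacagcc
miR-215: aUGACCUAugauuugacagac
miR-194: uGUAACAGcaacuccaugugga
miR-192*: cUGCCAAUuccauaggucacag
miR-215*: uCUGUCAUucuguaggccaau
miR-194-1*: cCAGUGGAgcugcuguuacuuc
miR-194-2*: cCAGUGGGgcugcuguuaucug

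miR-192 and miR-215 were identical at 18 of 21 bases. The differences, with the base of miR-192 first and positions counted from 1 at the 5′ end, were C1A, A12U and C20A, all outside the seed. Among the 1679 mature mouse miRNAs of the RefSeq table, no other sequence had the seed of miR-192 and miR-215, and no other had that of miR-194. The longest run shared by miR-192 and miR-215 was 10 bases, which is shorter than any tag that the authors kept, by their methods. A tag that matched without mismatch therefore belonged to only 1 of them. The number of mismatches allowed in mapping is not given in the sources used here.

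The hairpins lie in a pair of clusters, and each holds a copy of miR-194 upstream of a member of the other seed family. In GRCm38, Mir194-1 lies at chr1:185313319-185313385 and Mir215 at chr1:185313581-185313692, both on the plus strand and separated by 195 bases. Both are inside Iars2, which runs on the minus strand, in an intron. On their own strand they lie within the noncoding gene 2010103J01Rik, where Mir215 overlaps an exon and Mir194-1 does not. Mir194-2 lies at chr19:6264643-6264728 and Mir192 at chr19:6264844-6264932, again on the plus strand, with 115 bases between them. Neither overlaps another annotated gene, and Atg2a ends 2307 bases before Mir194-2.

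The hairpins are shown because the opposite strands, and not miR-194 itself, tell the copies of miR-194 apart. Both mature strands are in capitals.
Mir194-1: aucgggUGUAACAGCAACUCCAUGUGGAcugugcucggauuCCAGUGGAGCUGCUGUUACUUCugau
Mir215: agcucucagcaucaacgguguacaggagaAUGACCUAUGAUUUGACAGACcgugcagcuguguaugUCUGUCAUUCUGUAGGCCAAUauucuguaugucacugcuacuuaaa
Mir194-2: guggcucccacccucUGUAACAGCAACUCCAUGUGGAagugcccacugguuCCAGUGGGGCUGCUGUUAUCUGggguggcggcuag
Mir192: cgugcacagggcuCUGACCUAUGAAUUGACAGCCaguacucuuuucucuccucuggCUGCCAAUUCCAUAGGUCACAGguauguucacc

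The 5′ strand of Mir194-1 and Mir194-2 is the same 22 bases, so miR-194 is 1 row that both loci feed. The 3′ strands matched at 18 of 22 bases. From miR-194-1* to miR-194-2* they differed by A8G, C19U, U20C and C22G, with positions again counted from the 5′ end. The first of these falls on the last base of the seed, so the copies of miR-194 have 3′ strands with different seeds. The seed of miR-194-2* was also that of miR-6926-5p and miR-7055-5p, which were not among the rows of the table. No row carried a number above that of miR-5128, so the levels of miR-6926-5p and miR-7055-5p are unknown. GC content was 50.7% in Mir194-1, 43.8% in Mir215, 60.5% in Mir194-2 and 50.6% in Mir192.

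miR-192 was the dominant member. Its mean abundance was -9.07 on the log2 scale, which is 0.188% of miRNA reads, or 1876 RPM (reads among 1000000 miRNA reads), and it stood at rank 43 of 689. It sat between miR-381 at -9.06 and the muscle miRNA miR-133a at -9.07, which had 0.187% of reads. The most abundant row, miR-22, held 20.6%.

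miR-194 followed at -13.66, or 77.8 RPM, at rank 160. Its neighbours in the order were miR-136* at -13.65 and let-7b* at -13.66. miR-215 was at -14.35, or 48.0 RPM, with 193 rows above it, between miR-98* at -14.35 and miR-652 at -14.38. These 3 rows lay above the median of the table, which was -17.86.

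The opposite strands lay below that median. miR-215* was the highest of them at -18.83, or 2.16 RPM, at rank 396, with miR-667* directly above at -18.81 and miR-669o-5p directly below at -18.83. miR-194-1* was at -20.77, or 0.561 RPM, at rank 484, between miR-141* at -20.76 and miR-211 at -20.78. miR-194-2* was at -21.82, or 0.271 RPM, at rank 545, between miR-677 at -21.82 and miR-9* at -21.84. miR-192* was last at -23.73, or 0.0724 RPM, at rank 636, between miR-1251 at -23.72 and miR-216b* at -23.73. It was 0.80 log2 units above -24.52, the lowest level that was not among the 25 rows set apart at -35.64 and below, and no member was among those rows. In all, 30 rows shared their value with another row, and none of the members did. miR-192* was nearly tied, however, as the rows from rank 631 to 642 all lay between -23.72 and -23.73. The next rows outside this group were at -23.62 and -23.86, so the rank and neighbours of miR-192* within it carry little meaning.

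**Figure D1:**
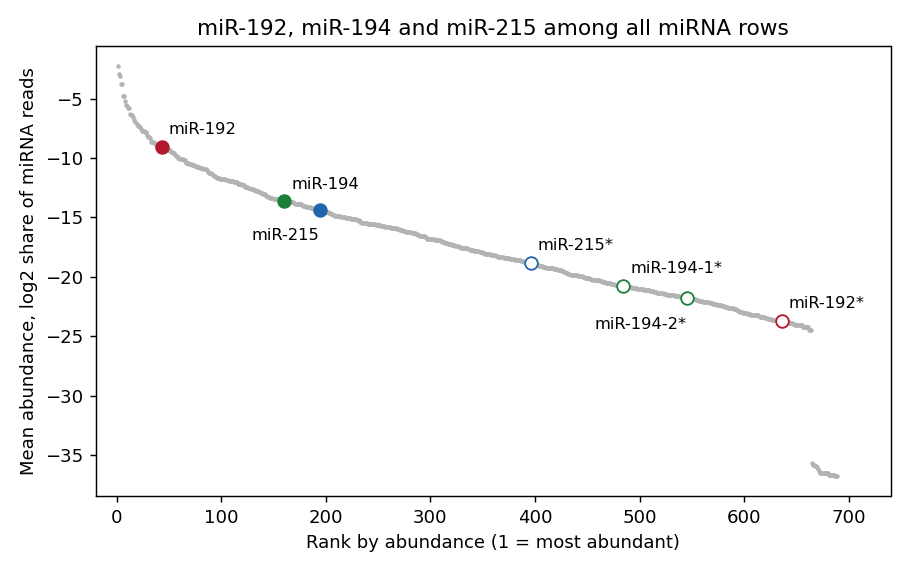
Mean abundance (log2 share of miRNA reads, the authors' mean) against rank for all 689 rows in grey, with the 7 members in colour, main strands filled and asterisked strands open; single cultures and errors are not shown. miR-192 stands at rank 43, miR-194 at 160 and miR-215 just after 193 other rows, and the 4 asterisked strands lie from rank 396 to 636.

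Together the 7 rows made up 0.200% of miRNA reads. miR-192 alone gave 93.6% of the reads of the members, miR-194 gave 3.88%, miR-215 gave 2.39% and the asterisked strands gave 0.153%. The seed shared by miR-192 and miR-215 was thus carried by miR-192 in 97.5% of the reads of that family, which came to 0.192% of miRNA reads. The family was 24.7 times as abundant as its cluster partner miR-194.

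Within the cluster on chromosome 19, miR-192 was 4.59 log2 units, or 24.1-fold, above miR-194, even though miR-194 also receives reads from the locus on chromosome 1. In the cluster on chromosome 1, miR-194 was 0.70 log2 units, or 1.62-fold, above miR-215, and here the second source of miR-194 is on the side of the higher miRNA. How the reads of miR-194 divide between its loci cannot be told apart from its level. Between the seed partners, miR-192 was 5.29 log2 units, or 39.1-fold, above miR-215.

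These differences were set beside those of other clustered miRNAs. Of the 1005 hairpins in the RefSeq table, 335 were matched by name to a row, and 314 pairs of different miRNAs had hairpins on the same strand less than 10 kb apart, after leaving out the rows at -35.64 and below. Their levels differed by a median of 3.13 log2 units, with quartiles of 1.26 and 5.40. The difference between miR-192 and miR-194 was exceeded by 110 of these pairs, and that between miR-215 and miR-194 by 274. Most of the pairs join hairpins of 1 long run, from Mir770 to Mir3072, taken all against all, so a row such as miR-127 enters many times. The counts are thus not a survey of separate clusters. With neighbouring hairpins only, 95 pairs remained, with a median of 2.37. Of these, 31 exceeded the difference between miR-192 and miR-194, and 79 that between miR-215 and miR-194. A miRNA with several copies enters with its whole level at each locus, as miR-194 does.

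The difference between the strands varied widely among the hairpins. miR-192 was 14.66 log2 units above miR-192*, a ratio of 25889. This ratio rests on the 0.0724 RPM of miR-192*, and the counts behind that level are unknown. miR-194 was 7.12 log2 units above miR-194-1* and 8.17 above miR-194-2*, and 93.5 times as abundant as both 3′ strands added together. The level of miR-194 holds the reads of both loci, so its differences to the single 3′ strands are upper bounds for each hairpin. miR-215 was 4.47 log2 units, or 22.2-fold, above miR-215*.

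Over the 205 pairs of a main and an asterisked strand in the table, the median difference was 5.75 log2 units. The difference of Mir192 was exceeded by 14 of these pairs. Without the 13 pairs that hold a row at -35.64 or below, the median was 5.31, and the difference of Mir192 was exceeded only by let-7f against let-7f-2*, at 15.41. The next pairs below it were miR-100 at 14.42 and miR-16 against miR-16-1* at 14.32. Among these remaining pairs, the difference of Mir194-2 was exceeded by 56, that of Mir194-1 by 66 and that of Mir215 by 104. Mir215 lay below their median and Mir192 near their upper end, a place that rests on the low level of miR-192*. Of the 39 pairs whose main strand was at least as abundant as miR-192, with both rows above -35.64, 1 had a larger difference than Mir192, and their median was 9.61. Mir215, whose main strand was less abundant, was not set against these pairs. In all sets, a main strand with several copies enters with its whole level against each asterisked strand, as miR-194, let-7f and miR-16 do.

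**Figure D2:**
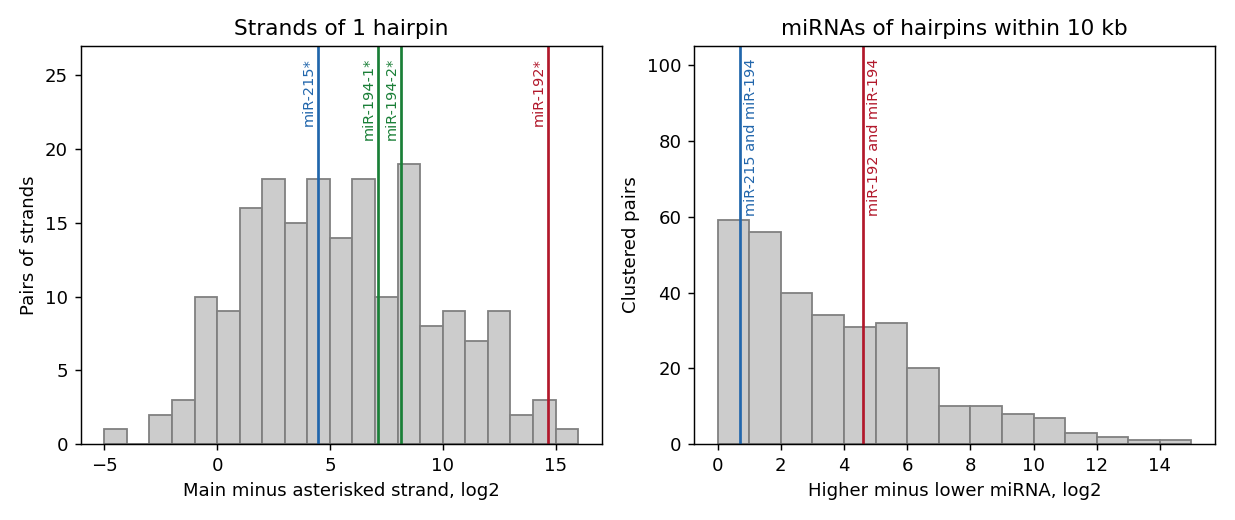
Left, main minus asterisked strand (log2) in the pairs of strands that remain without the 13 that hold a row at -35.64 or below; right, higher minus lower miRNA (log2) in the 314 pairs with hairpins less than 10 kb apart; bars count pairs and coloured lines mark the members. Mir192 lies at 14.66 near the upper end of the left panel, with miR-192* at only 0.0724 RPM. In the right panel, miR-192 and miR-194 differ by 4.59 and miR-215 and miR-194 by 0.70. Most pairs of that panel join hairpins of 1 long run, from Mir770 to Mir3072.

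The order of the opposite strands was the reverse of that of the main strands. miR-192 was the highest main strand and miR-192* the lowest asterisked one, while miR-215 was the lowest main strand and miR-215* the highest asterisked one. miR-215* exceeded miR-192* by 4.90 log2 units, or 29.8-fold. Each 3′ strand comes from a single locus, and the clusters differed in which hairpin had the higher one. On chromosome 1, miR-215* was 3.85 times as abundant as miR-194-1*, and on chromosome 19, miR-194-2* was 3.74 times as abundant as miR-192*. Between the copies of miR-194, miR-194-1* was 1.05 log2 units, or 2.07-fold, above miR-194-2* and gave 67.5% of their joint reads. Added up, the 3′ strands from chromosome 1 had 7.93 times the reads of those from chromosome 19. Each of these strands had at most 2.16 RPM, and the counts behind them are unknown.

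**Figure D3:**
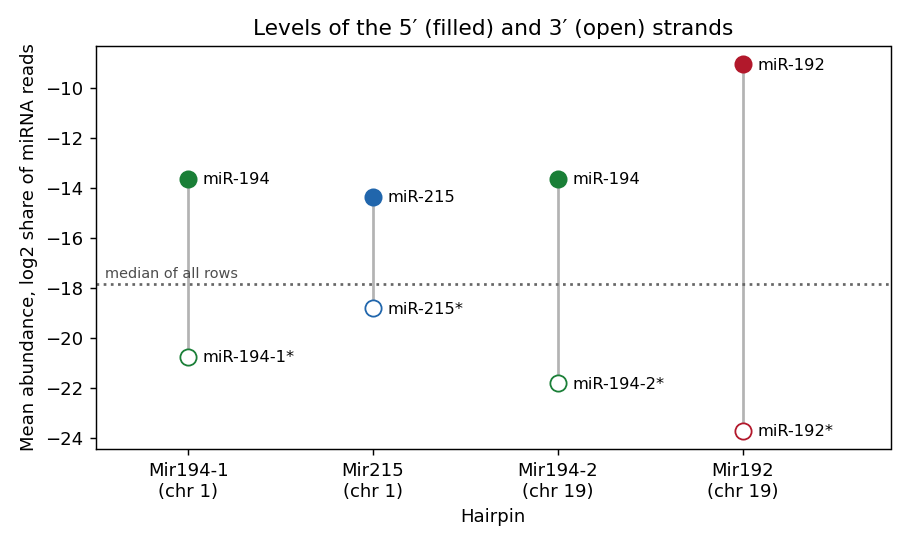
Mean abundance (log2 share of miRNA reads, the authors' mean over all cultures) of the 5′ strand (filled) and 3′ strand (open) of each hairpin, in the order of the clusters on chromosomes 1 and 19; miR-194 is 1 row drawn at both of its loci, and there are no error bars. The strands of Mir192 are 14.66 log2 units apart and those of Mir215 are 4.47 apart.

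The levels of the family were set beside marker miRNAs of the labelled cell type and of other cells. All 6 cardiomyocyte miRNAs were listed, from -6.41 for miR-208b, which is encoded in the slow myosin gene of embryonic ventricle, to -16.52 for miR-133b, with miR-1a at -11.31. Markers of other cells of the heart were listed too, at levels that differed within each list. Of the fibroblast miRNAs, miR-199a-5p was at -8.63, miR-199a-3p and miR-199b both at -9.30 and miR-214 at -11.81. The strands of the endothelial miR-126 were at -7.75 (miR-126-5p) and -12.92 (miR-126-3p), on either side of miR-192. Of those known from smooth muscle, miR-143 was at -2.91 with 13.4% of miRNA reads and miR-145 was at -10.49. The list of 5 blood miRNAs, each by its highest row without an asterisk, summed to 0.00839% of reads, of which miR-142-5p alone held 0.00753%. miR-192 was above 5 of the 6 cardiomyocyte miRNAs, though level with miR-133a as given above, and miR-194 and miR-215 were above miR-133b only. In bulk cultures, fewer cells of a type and less RNA per cell cannot be told apart.

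miRNAs of gut, liver and other epithelia, the tissues for which this family is known, did not stand near miR-192. Of 11 in the list, 10 had a row without an asterisk. The exception was miR-802, listed only as miR-802*, at -22.62. The liver miRNA miR-122 was at -20.67, or 0.603 RPM, and miR-375, a miRNA of islets and gut endocrine cells, was at -18.24. The 7 epithelial miRNAs, which are the miR-200 family, miR-203 and miR-205, lay between -18.07 for miR-200a and -16.27 for miR-429 and summed to 0.00498% of reads. All of these were below miR-215, and miR-192 exceeded miR-429 by 7.20 log2 units and miR-122 by 11.60. The exception was miR-31, at -7.79, above miR-192. The part of other cell types in the level of miR-192 was not tested.

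The other p53-responsive miRNAs were listed for all 7 names. miR-143, miR-16 and miR-34c were above miR-192, with miR-34c at -8.76. miR-34a, the best known of them, was at -12.62, which is 3.56 log2 units below miR-192 and above miR-194. miR-145 was at -10.49, miR-107 at -12.92 and miR-34b-5p at -13.70. All 7 lay above miR-215, and 6 of them above miR-194.

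**Figure D4:**
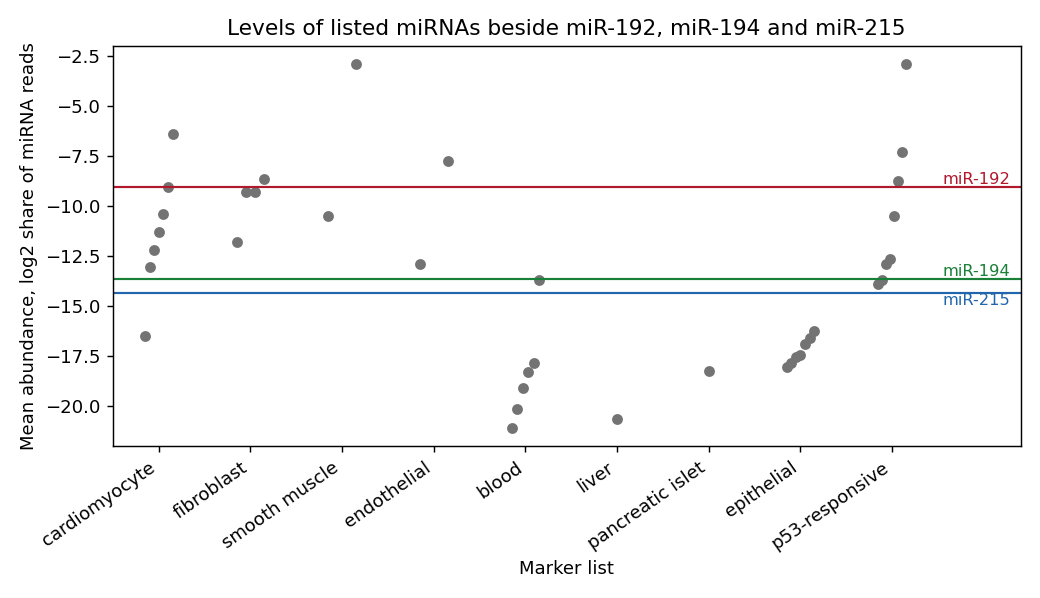
Mean abundance (log2 share of miRNA reads, the authors' mean) of the miRNAs of 9 lists as grey points, with lines at the levels of miR-192, miR-194 and miR-215. Each point is a row without an asterisk, asterisked strands are not drawn, and there are no error bars. The epithelial miRNAs lie between -18.07 and -16.27, below all 3 lines. The joint list of gut, liver and epithelial miRNAs is not drawn, so its member miR-31, at -7.79 and above miR-192, is missing here. miR-192 at -9.07 lies within the range of the cardiomyocyte, fibroblast, smooth muscle, endothelial and p53-responsive miRNAs.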

How the data were processed

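Small RNA was sequenced from 3 static and 3 stretched cultures by the labels, whereas the methods name more samples. The authors prepared TruSeq small RNA libraries, discarded short tags, aligned the rest by Bowtie2, summed hits under each name and ran edgeR. The submitters' processing notes name Bowtie2 and DESeq. The genome build, versions and normalization are not given in the sources used here. Adapter ligation is known to depend on sequence, so read shares of different miRNAs need not equal shares of molecules.

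The authors gave each miRNA an abundance headed logConc, read here as a mean log2 value, and 2 to the power of it summed to 0.995 over the table. The other 4 columns hold the authors' comparison of the groups (log2 and signed fold change, P value and FDR) and were not used. Without values per sample, depth and precision are unknown and no test was run.

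Shares were computed as 2 to the power of the level over that sum, and RPM as that share scaled to 1000000. Main and asterisked strands were paired by name. Rows below -30 were treated as set apart. Sequences and hairpins came from RefSeq (GRCm38.p6), and overlapping genes from GENCODE M21. The members and lists were chosen with earlier results of these data known. Listed marker miRNAs were read from their rows without an asterisk. The named miRNAs were the members, their neighbours in the order, the top row, the marker lists and miRNAs with the same seeds; miR-1 was read as miR-1a, and let-7f, miR-100 and miR-16 were named after their strand differences had been seen. The steps were tested on simulated data. Python 3.11.15, numpy 2.4.6, pandas 2.3.3 and matplotlib 3.10.9 were used.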

Additional observations from a re-analysis of the deposited data

How the results depend on the processing

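Of 39 values recomputed with other settings, 8 were the same to 3 digits and 31 moved. The rank of miR-192 was 42 with identical rows counted once and stayed at 43 with the other settings; counting identical rows once placed every other member higher in the order too, as far as rank 626 for miR-192*. The share of the seed family of miR-192 and miR-215 was 0.242% of miRNA reads without miR-22. Read as log10 values, it would be 1.14e-05%, but 10 to the power of the values summed to 0.00756 over the table. The median difference between strands was 6.40 log2 units for main strands above the median of the table and 5.31 for pairs without the rows set apart. That of clustered pairs was 2.72 within 5 kb, 3.11 within 50 kb and 2.37 for neighbouring hairpins only. The remaining values that moved were ranks and shares of single members, and the shares all rose without miR-22.

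No paired analysis was possible because the table holds 1 mean per miRNA and no values per sample. For the same reason the planned count test and its alternatives (DESeq2 size factors, no filter, the replicate block and the removal of single replicates) were not run. Depth is unknown, so what it limits could not be measured.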
